A study of Gossypium hirsutum with 12 samples.

Results

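Lea14-A and Lea5-D are late embryogenesis abundant (LEA) genes of upland cotton (Gossypium hirsutum). Probe sets were taken where the platform annotation gives 1 gene and that gene carries exactly one of these names in the gene table. The rule found 2 of the 520 genes that have a probe set to themselves, and 2 of the 24132 probe sets on the array, 1 for Lea14-A (LOC107922715) and 1 for Lea5-D (LOC107916177), and both passed the filter on dim signals. Transcripts were measured on Affymetrix Cotton arrays in the third youngest fully expanded leaf of the cultivars Sicala 45 and Sicot 53. The 12 arrays form 4 groups of 3: Sicala 45 at 42 °C, Sicala 45 at 32 °C, Sicot 53 at 42 °C and Sicot 53 at 32 °C, where the temperature is that of the day. Plants grew in field soil, settled for 4 d in the cabinet at 32 °C days and 25 °C nights, and were sampled at the first square stage. The heated plants were kept well watered, with nights still at 25 °C. They entered the growth cabinet once the 32 °C plants were out, so temperature and cabinet run cannot be told apart. Whether the 3 leaf samples of a group stand for 3 plants is not stated, and p-values cover no more than the spread among the samples, which may be technical.

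LEA proteins build up in seeds late in their maturation, when the embryo dries, and many of their genes are also switched on in leaves by water deficit or abscisic acid. Most are very hydrophilic and are thought to protect other proteins and membranes during water loss. Lea5 and Lea14 belong to less typical LEA families with more hydrophobic proteins. The Lea5 protein of Arabidopsis, also called SAG21, is known for its link to senescence and oxidative stress. The letter in each name stands for the A or the D subgenome of this tetraploid species. The gene table holds 1 further gene with a Lea name, an A-subgenome copy of Lea5, which has no probe set of its own in the annotation. Both probe sets are of a design that may also bind transcripts of near-identical gene copies, which would add to their signal.

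The temperature groups overlapped for both genes, and no comparison of them passed the test. Lea14-A was bright in all leaves and spanned a narrower range than Lea5-D. Lea5-D ranged far more widely between arrays of the same cultivar and temperature than between the temperatures. The 2 genes were high and low on much the same arrays.

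Lea14-A had signals (MAS5 values, a linear brightness scaled to the same trimmed mean of 500 on every array) of 4736, 4061 and 6595 in Sicala 45 at 42 °C, against 3912, 6557 and 3029 in Sicala 45 at 32 °C. In Sicot 53 the signals were 3881.5, 8189 and 6410.5 at 42 °C, against 3783.5, 4464 and 2373 at 32 °C. In each cultivar the ranges at the 2 temperatures overlapped, and the lowest of all 12 signals came from a 32 °C leaf of Sicot 53 and the highest from a 42 °C leaf of the same cultivar. On every array Lea14-A was brighter than at least 93.1% of probe sets, and its brightest array stood at 18.2% of that array's highest signal. The order of its group means on the log2 scale, low to high, was Sicot 53 at 32 °C (signal 3540 ± 1067, SD, n = 3 in each group), Sicala 45 at 32 °C (4499 ± 1836), Sicala 45 at 42 °C (5131 ± 1312) and Sicot 53 at 42 °C (6160 ± 2165). No neighbours in this order differed beyond their spread, with steps of 0.23 to 0.32 log2 units against SDs of up to 0.57.

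Lea5-D had signals of 1003, 2888 and 9465 in Sicala 45 at 42 °C, against 774, 6795 and 2999 in Sicala 45 at 32 °C. In Sicot 53 its signals were 679, 15566 and 2622 at 42 °C, against 1406, 2969 and 535 at 32 °C. Every group held both a low leaf and a leaf several times brighter. The highest signal of a group was 9.43 times the lowest in Sicala 45 at 42 °C and 8.78 times in Sicala 45 at 32 °C. In Sicot 53 the same ratio was 22.9 at 42 °C and 5.55 at 32 °C. Over all 12 arrays Lea5-D spanned a 29.1-fold range, against 3.45-fold for Lea14-A. Its dimmest leaf was still brighter than 74.7% of the probe sets on its array, and its brightest lay above 99.2%, at 34.6% of that array's highest signal. The order of group means on the log2 scale was Sicot 53 at 32 °C (signal 1637 ± 1233, SD, n = 3 in each group), Sicala 45 at 32 °C (3523 ± 3044), Sicala 45 at 42 °C (4452 ± 4443) and Sicot 53 at 42 °C (6289 ± 8092). The top pair stood 0.01 log2 units apart, and no neighbours differed beyond their spread.

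**Figure D1:**
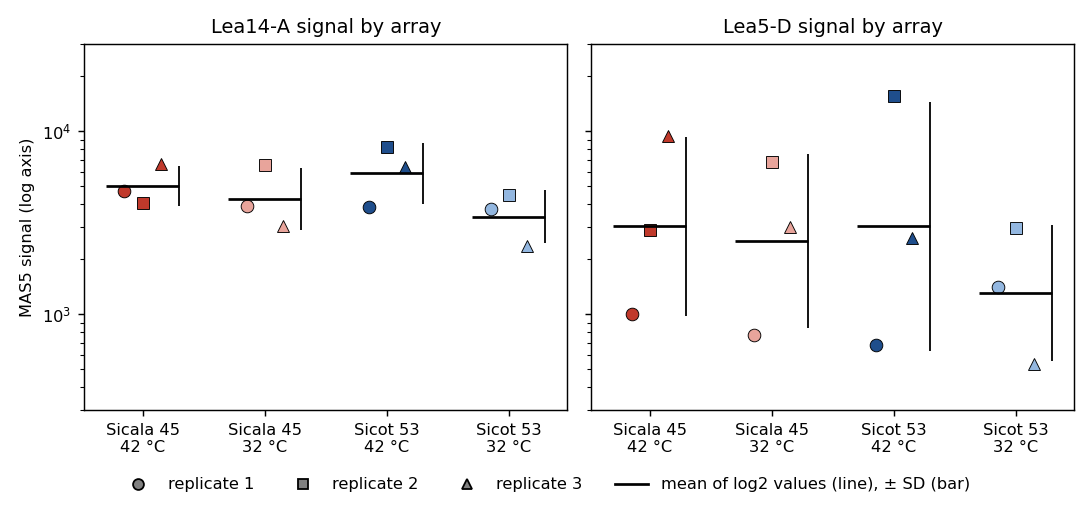
MAS5 signal of Lea14-A (left) and Lea5-D (right) on each of the 12 arrays, on a log axis, by cultivar and day temperature. Symbols are replicate numbers, lines are means of the log2 values and bars their SD (n = 3). Lea14-A lies between 2373 and 8189 throughout, while Lea5-D spreads from 535 to 15566 and overlaps between all groups.

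The first comparison asked whether heat changed these transcripts. Changes were taken on the scale of log2(signal + 16) from one limma model of all probe sets, with p-values adjusted over all 16820 tested. Averaged over the cultivars, Lea14-A was 1.42-fold higher at 42 °C, a log2 change of +0.51 ± 0.25 SE (95% interval -0.04 to +1.06, limma adjusted p = 0.236). Lea5-D was 1.66-fold higher (+0.73 ± 0.80 SE, 95% interval -1.02 to +2.49, limma adjusted p = 0.624). So 0 of the 2 probe sets passed at an adjusted p under 0.05, where 8.8% of all tested probe sets did. Neither had an unadjusted p under 0.05, and 25.2% of all tested probe sets had one. A miss does not show that heat had no effect: the intervals reach a 2.08-fold rise for Lea14-A and a 5.6-fold rise for Lea5-D.

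Within Sicala 45, Lea14-A was 1.18-fold higher at 42 °C, a log2 change of +0.23 ± 0.36 SE (limma adjusted p = 0.81), and Lea5-D 1.20-fold (+0.26 ± 1.14 SE, limma adjusted p = 0.941). Within Sicot 53, Lea14-A was 1.72-fold higher at 42 °C (+0.78 ± 0.36 SE, 95% interval +0.00 to +1.56, limma adjusted p = 0.321) and Lea5-D 2.30-fold (+1.20 ± 1.14 SE, limma adjusted p = 0.648). The unadjusted p of Lea14-A in Sicot 53 was 0.0495 in limma, and 15.5% of all tested probe sets had an unadjusted p under 0.05 there. Neither gene passed in either cultivar, where 1.81% of all tested probe sets were called in Sicala 45 and 1.36% in Sicot 53. The heat change of Sicot 53 minus that of Sicala 45 was +0.54 ± 0.51 SE for Lea14-A and +0.94 ± 1.61 SE for Lea5-D (limma adjusted p = 0.9999 for both). That test called 0% of probe sets in limma, and 1.91% had an unadjusted p under 0.05.

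**Figure D2:**
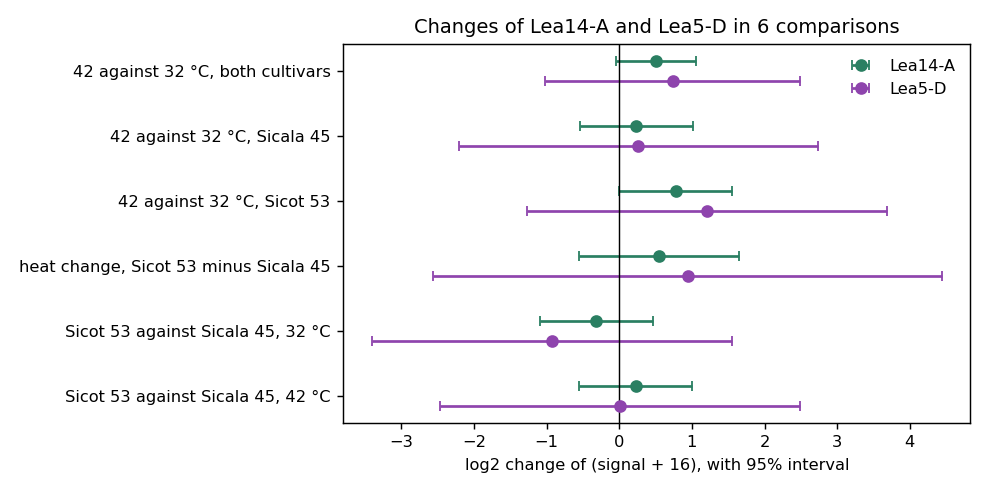
Log2 changes of Lea14-A (green) and Lea5-D (purple) in 6 comparisons, as points with 95% intervals from the limma model. The first group named in each row is on top of the fold change, and positive values mean higher there. The intervals of Lea5-D are wider in every row, and for averaged heat they run from -1.02 to +2.49, against -0.04 to +1.06 for Lea14-A.

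Single arrays set the size of the Lea5-D values. Without the leaf of 15566, Sicot 53 at 42 °C replicate 2, the heat change of Lea5-D was +0.03 in Sicot 53, against +1.20 with it, and +0.15 averaged over cultivars, against +0.73 with it. Without the leaf of 679, Sicot 53 at 42 °C replicate 1, Lea5-D moved the other way, to +2.27 in Sicot 53 and +1.27 averaged over cultivars. In Sicala 45 the change of Lea5-D was -0.58 without the 32 °C replicate 1, its dimmest leaf there, and -0.56 without the 42 °C replicate 3, its brightest. It was +1.05 without the 42 °C replicate 1 and +0.98 without the 32 °C replicate 2. For Lea14-A, averaged heat gave +0.38 to +0.66 over the 12 arrays left out one at a time, and in Sicala 45 the change was -0.01 without the 32 °C replicate 3. No omission of a single array brought either gene past the threshold for averaged heat (limma adjusted p of at least 0.114 for Lea14-A and 0.314 for Lea5-D).

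**Figure D3:**
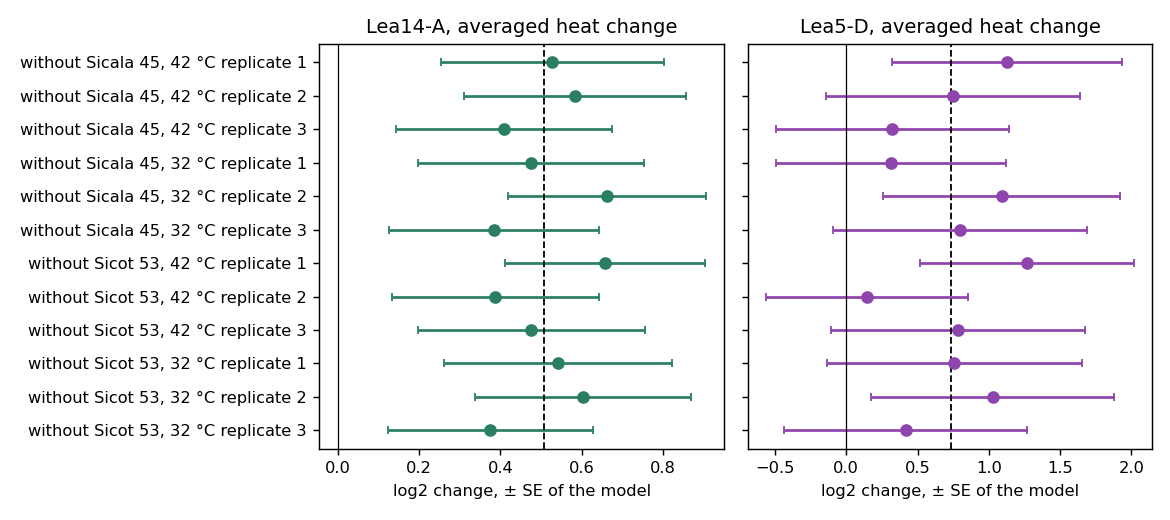
Averaged heat change (42 minus 32 °C, log2) of Lea14-A (left) and Lea5-D (right) with each of the 12 arrays left out in turn; bars are SE of the limma model, the dashed line is the value from all arrays and the solid line is 0. The horizontal scales differ. Lea14-A stays between +0.38 and +0.66, while Lea5-D moves between +0.15 and +1.27, lowest without Sicot 53 at 42 °C replicate 2.

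Of 3 control measures of RNA and labelling, the ubq11 ratio and the poly-A spikes differed between the temperatures and the actin ratio did not pass. For the ubiquitin control ubq11, signal at the 3' end over signal at the 5' end, a ratio that grows as RNA is degraded, was 6.39 to 41.5 at 42 °C, against 4.73 to 10.7 at 32 °C (temperatures permuted within cultivars, exact two-sided p = 0.02). The same ratio of actin was 6.02 to 18.6 at 42 °C, against 7.98 to 13.5 at 32 °C (exact permutation p = 0.925). The 3' signal of ubq11 itself was 3119 to 6385 at 42 °C, against 1929 to 3245 at 32 °C. What moved the ubq11 ratio was not tested. The leaf with the brightest Lea5-D signal had the highest value of both ratios, 41.5 and 18.6. With the ubq11 ratio as a covariate the averaged heat change was +0.37 for Lea14-A and -0.76 for Lea5-D (limma adjusted p = 0.578 and 0.675). Without the 2 arrays of a ubq11 ratio above 20, both at 42 °C, it was +0.46 for Lea14-A and +0.16 for Lea5-D. Bacterial poly-A spikes, added to the RNA as a labelling control, were 1.41-fold brighter on the 42 °C arrays (exact permutation p = 0.01). Scaled to these spikes, the averaged change was +0.01 for Lea14-A and +0.24 for Lea5-D, while the median of all tested probe sets moved to -0.50, against -0.05 without that scaling. In bulk leaf RNA, fewer cells of a type and less RNA per cell cannot be told apart.

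Spread between replicates was what set Lea5-D apart from most of the array. Its SD within groups was 1.70 log2 units, a 3.26-fold factor, against 0.49 for Lea14-A and a median of 0.40 over all tested probe sets. Only 54 of the 16820 tested probe sets had a larger SD, and among the 1217 others within 0.5 log2 units of its mean level, 99.3% had a smaller one. Lea14-A was ordinary in this respect, with a smaller SD at 66.4% of all tested probe sets and at 78.2% of the 588 of like level. Of the variation of Lea5-D over the 12 arrays, 11.2% lay between the 4 groups, and for Lea14-A 34.1% did. Random spread alone also places part of the variation between such small groups. The share over all tested probe sets was not computed, so neither value shows an effect of group. These are descriptions, with no test. Leaving out any 1 array gave Lea5-D an SD of 1.46 to 1.82, with a smaller SD at 99.5% to 99.8% of tested probe sets. Without the 2 arrays of high ubq11 ratio its SD was 1.58, larger than that of 99.6% of tested probe sets.

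**Figure D4:**
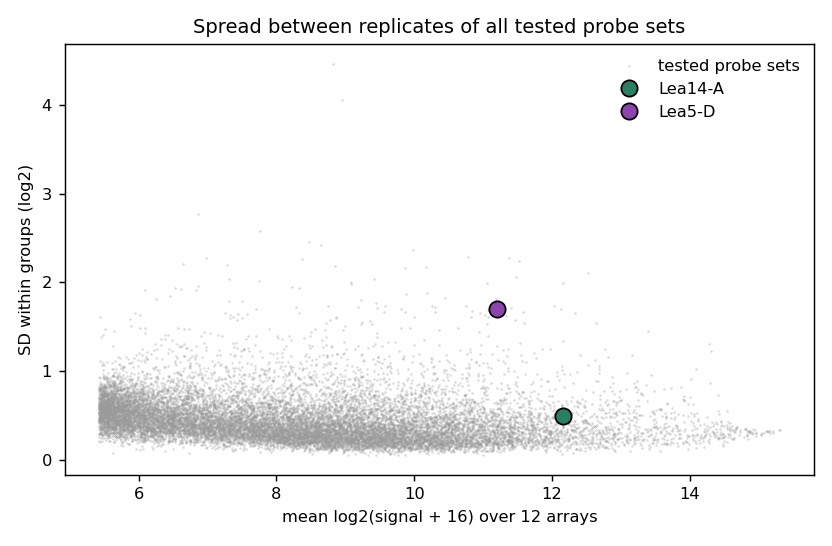
SD within groups against mean level, both on the scale of log2(signal + 16), for the 16820 tested probe sets (grey) with Lea14-A (green) and Lea5-D (purple). Lea5-D stands above the main band at 1.70 log2 units, while Lea14-A lies inside it at 0.49.

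The 2 genes varied together from array to array. Over the 12 arrays their log2 signals correlated at r = 0.779 (permutation p = 0.00327, adjusted p = 0.0229 over 7 relations) and Spearman's rho = 0.692 (permutation p = 0.0155, adjusted p = 0.0531). Without the 2 arrays farthest from the median of Lea14-A, r was 0.585. Within each temperature r was 0.839 at 42 °C and 0.753 at 32 °C, and within cultivars 0.897 in Sicot 53 and 0.588 in Sicala 45 (6 arrays each). With group means taken out, r was 0.785 (exact permutation within groups over 1296 arrangements, p = 0.0224, adjusted p = 0.0576), and the deviations of both genes had the same sign on 10 of 12 arrays. The tests of r and rho over all arrays shuffled them without regard to group, and that of the deviations kept to the groups. After adjustment, the permutation test of r over all arrays passed 0.05, and those of rho and of the deviations did not.

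Other probe sets followed the same arrays. Of the 16819 other tested probe sets, 1.39% were at least as like Lea5-D over the 12 arrays as Lea14-A was, and 0.987% were at least as like Lea14-A as Lea5-D was. With group means taken out, these shares were 2.97% and 1.66%. Of the control measures, the actin ratio passed for Lea5-D by r and the others did not: its r with the log2 actin ratio was 0.722 (permutation p = 0.00935, adjusted p = 0.0327), with the ubq11 ratio 0.62 (adjusted p = 0.053) and with the poly-A spikes 0.474 (adjusted p = 0.139). Without the 2 arrays farthest from the median of each measure these were 0.509, 0.429 and 0.0751. With group means taken out, r of Lea5-D was 0.802 with the actin ratio, 0.615 with the ubq11 ratio and 0.752 with the spikes (exact permutation within groups, adjusted p = 0.0576, 0.202 and 0.0576). The values for the actin ratio and the spikes lie close to the 0.785 between the 2 genes, and none of them passed after adjustment. Spearman's rho for Lea5-D was 0.741 with the actin ratio, 0.469 with the ubq11 ratio and 0.308 with the spikes (permutation, adjusted p = 0.0531, 0.209 and 0.384). For Lea14-A, r was 0.276 with the actin ratio, 0.505 with the ubq11 ratio and 0.659 with the spikes (permutation, adjusted p = 0.384, 0.133 and 0.0478), and rho 0.231, 0.448 and 0.664 (adjusted p = 0.468, 0.209 and 0.0531). Of these, only the r of Lea14-A with the spikes passed. Without the 2 arrays farthest out, its r was -0.0841, 0.418 and 0.569. With group means taken out, r of Lea14-A was 0.401, 0.189 and 0.711 (exact permutation within groups, adjusted p = 0.383, 0.647 and 0.0918). With the actin ratio held constant, the partial r between the 2 genes was 0.872. With the ubq11 ratio held constant it was 0.688, and with the spikes 0.705. Within groups, these partial values were 0.847, 0.863 and 0.539.

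**Figure D5:**
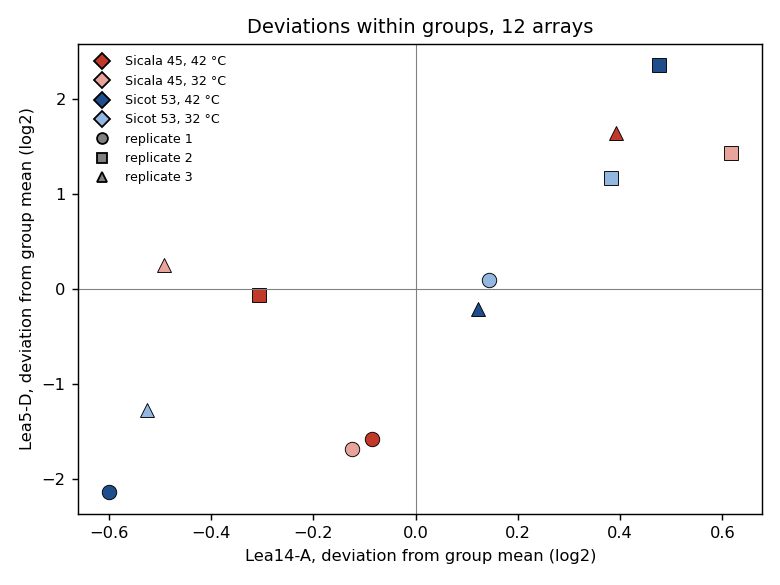
Deviation of each array from its group mean (log2) for Lea14-A (x axis) and Lea5-D (y axis), with colours for groups and symbols for replicate numbers. Of the 12 arrays, 10 lie in the quadrants where both genes deviate the same way, and the y axis spans a wider range than the x axis.

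Whether heat moved the genes unequally was tested on the difference of their log2 values within each array. It averaged -0.73 ± 1.39 (SD, n = 3) in Sicala 45 at 42 °C and -0.76 ± 1.35 in Sicala 45 at 32 °C. In Sicot 53 it was -0.95 ± 1.73 at 42 °C and -1.37 ± 0.77 at 32 °C. The change of Lea5-D minus that of Lea14-A was +0.23 ± 0.78 SE (exact two-sided p = 0.775 from all 400 permutations of temperature inside each cultivar), and an unequal response was not detectable with these arrays.

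The named genes most like Lea14-A over the 12 arrays, among 257 other tested probe sets with an informative name, were NHX1 (r = 0.845), a vacuolar sodium/proton antiporter, and MAPKKK (0.833), a kinase at the head of a MAP kinase cascade. They were followed by ACO1 (0.823), an ACC oxidase of ethylene synthesis, XTH3 (0.796), a xyloglucan endotransglucosylase of the cell wall, and MAPK (0.782), a MAP kinase. For Lea5-D they were HB4 (r = 0.875), a homeobox gene by name, Aux2 (0.867), GID1-4 (0.865), a gibberellin receptor by name, XTH3 (0.805) and GHPDI12 (0.787). With group means taken out, r was 0.728 to 0.864 for the genes nearest Lea14-A and 0.769 to 0.922 for those nearest Lea5-D. XTH3 is in both sets, and its own signal ran from 374 to 7293. Of these genes, ACO1 (log2 change +0.94 ± 0.23 SE, limma adjusted p = 0.0261) and XTH3 (+1.70 ± 0.47 SE, limma adjusted p = 0.0455) rose with averaged heat, where 4.22% of all tested probe sets did. These genes were picked by r over arrays of both temperatures, so the share over all probe sets is not a like background for them. Among all tested probe sets, named or not, 4 had an r above 0.9 with Lea14-A and 17 with Lea5-D, the closest at 0.925 and 0.946. All probe sets of an array share its depth of labelling and its RNA quality, and both measures varied between arrays. The r values with these genes are descriptions, with no test.

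Few other genes of water stress carry a name on this array. The list for LEA proteins and dehydrins held only Lea14-A and Lea5-D, and those for abscisic acid and heat shock matched no named probe set and were not analysed here. Of 5 probe sets in the list of osmotic and dehydration response, 1 rose with averaged heat, where 4.22% of all tested probe sets did, and 4 did not pass. The median log2 change of all 5 was +0.18, against -0.05 over all tested probe sets. The one that rose was the dimmer probe set of CBF17, a C-repeat binding factor of the family that drives cold and drought genes. Its log2 change was +1.02 ± 0.18 SE (limma adjusted p = 0.0061), with mean signals of 143 at 42 °C and 62.2 at 32 °C. The other probe set of the same gene was far brighter, with mean signals of 13897 at 42 °C and 12313 at 32 °C, and had +0.18 ± 0.14 SE. CBF20 had +0.13 ± 0.17, CBF15 -0.31 ± 0.18 and an aquaporin, a water channel, +0.33 ± 0.26. All probe sets of the list other than the dimmer CBF17 had an adjusted p of at least 0.304 in limma.

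Salt and drought genes were listed by short name after the array's names had been seen. None of the 7 tested probe sets passed for averaged heat, where 8.8% of all tested probe sets did, 5 had positive and 2 negative values, and the median log2 change was +0.27. Di19-2, named for induction by drought, had +0.50 ± 0.16 SE (limma adjusted p = 0.0793), and NHX1 +0.84 ± 0.32 (limma adjusted p = 0.123). SOS2, a kinase of salt tolerance, had +0.30 ± 0.14, and the calcium sensors CBL2 and CBL3 had +0.27 ± 0.13 and -0.40 ± 0.17. A probe set of CBL1, of the same family, had -0.36 ± 0.22 (limma adjusted p = 0.344).

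Because LEA genes are best known from seeds, genes for seed storage proteins were looked at by short name, also after the names had been seen. Of 6 probe sets, 4 fell among the dimmest 30% and were not tested: LegA and a probe set of LEGB for legumins, Mat5-D for a 2S albumin and vicB_At for a vicilin, with no signal above 48.7 on any array. The tested ones were the other LEGB probe set (log2 change -0.06 ± 0.31 SE) and MatP7, an oleosin (-0.33 ± 0.33), and neither passed (limma adjusted p = 0.935 and 0.594). Summed over the 6, signals were 83.6 to 347 at 42 °C, against 153 to 295 at 32 °C. The leaf label was checked with RCA1, Rubisco activase, at 33077 to 44130 at 42 °C, against 20925 to 45772 at 32 °C, the 1 leaf marker with a name here. Fibre and trichome markers, summed over 7 probe sets, were at 14771 to 29230 at 42 °C, against 22576 to 27471 at 32 °C, and 0 of the 6 tested passed for averaged heat, against 8.8% of all tested probe sets. The lowest adjusted p among them was that of Fb2, with a log2 change of -0.69 ± 0.21 SE (limma adjusted p = 0.0607). The brightest of these fibre and trichome markers were the probe sets of FSLTP2, at 10169 to 23004 and at 3024 to 5290, and E6 was at 413 to 1240. The fibre factor myb109 was dim, at 1.35 to 52.4, as was the pollen marker G9, at 0.802 to 13.5, and neither was tested. The part of these cell types in the Lea values was not tested.

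Sicot 53 was then set against Sicala 45 at each temperature, to ask whether the cultivars differed in these transcripts. At 32 °C, Lea14-A had a log2 difference of -0.32 ± 0.36 SE and Lea5-D of -0.93 ± 1.14 SE (limma adjusted p = 0.9998 for both). At 42 °C the differences were +0.23 ± 0.36 SE for Lea14-A and +0.01 ± 1.14 SE for Lea5-D (limma adjusted p = 0.9999 for both). The cultivars overlapped for both genes at both temperatures, and 0.107% of all tested probe sets were called at each. The 95% intervals at 32 °C ran from -1.09 to +0.46 for Lea14-A and from -3.41 to +1.55 for Lea5-D. At 42 °C they ran from -0.55 to +1.0 and from -2.47 to +2.49, so a cultivar difference of several-fold in Lea5-D would not have been detectable with 3 arrays per group.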

How the data were processed

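The authors deposited a linear signal intensity for each probe set on each array. It was made with MAS5, per the submitters' processing notes, with its version not given in the sources used here. A trimmed mean of 500 on every array shows a common scaling, and any further step is not stated. No 2 arrays held identical values. Arrays were grouped by their titles.

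From the signals, log2(signal + 16) was computed without further normalization. The pseudocount makes fold changes understate those of dim probe sets. The 103 AFFX controls and the dimmest 30% by mean log2 value were left out, which left 16820 probe sets. One model of the 4 groups was fitted over 12 arrays with limma 3.58.1 in R 4.3.3 (lmFit, eBayes with an intensity trend), two-sided, with Benjamini-Hochberg adjustment over all probe sets tested and a threshold of 0.05. The model was tested on simulated data. Single values per array were tested by permutation of samples. Correlations used 100000 permutations that ignored the groups, or all 1296 within groups, two-sided, with Benjamini-Hochberg adjustment over 7 relations. The number of arrays limits the precision.

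Names came from the probe annotation, in which 697 probe sets have 1 gene, 46 several and 23389 none listed, and from a gene table of assembly Gossypium_hirsutum_v2.1, which matched all 697. A name was held for 324, informative for 318. No coordinates or sequences are given. The members and lists were chosen with earlier results of these data known. The genes named are both members, the 5 informatively named probe sets of highest r with each, and up to 6 members of each pathway list by lowest p for averaged heat. Cell type markers and seed storage genes fall outside this rule and were named after their values were seen. Tried as alternatives were quantile normalization, median centring, scaling to 36 poly-A spike probe sets, pseudocounts of 1 and 64, no filter and one at 50%, no trend, array weights, only the groups compared, a replicate block, the ubq11 ratio, and leaving out arrays.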

Additional observations from a re-analysis of the deposited data

How the results depend on the processing

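No alternative brought Lea14-A or Lea5-D past the threshold in any of the 6 comparisons. Signs turned as follows, and the cause was not tested. With the ubq11 ratio as a covariate, Lea5-D had -0.76 for averaged heat, -0.67 in Sicala 45, -0.84 in Sicot 53, -0.17 for the difference between heat changes and -0.56 between cultivars at 42 °C. Scaling to the spikes gave Sicala 45 heat changes of -0.24 (Lea14-A) and -0.21 (Lea5-D), and cultivar differences at 42 °C of -0.076 and -0.29. Without the arrays of a ubq11 ratio above 20, Lea5-D had -0.27 for the difference between heat changes and -1.20 between cultivars at 42 °C, where Lea14-A had -0.16. That last Lea5-D value was -0.065 under quantile normalization and -0.68 with array weights. Leaving out single arrays gave Lea14-A -0.011 to +0.54 for heat in Sicala 45 and -0.010 to +0.53 between cultivars at 42 °C. It gave Lea5-D -0.58 to +1.05 for heat in Sicala 45, -0.23 to +2.01 for the difference between heat changes and -1.17 to +1.08 between cultivars at 42 °C, and -0.24 to +0.61 for its heat change minus that of Lea14-A. The correlation of the genes, under alternatives chosen after seeing the data, was 0.675 to 0.804 under other scalings or without the 2 arrays, and 0.692 to 0.864 with single arrays left out, each with a permutation p under 0.05 before adjustment.

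Over all tested probe sets, same-numbered arrays of different groups had deviations correlated at r of -0.48 to 0.46, with 7 of 18 pairs above 0.1. Arrays of different number and group had r of -0.61 to 0.44, with 13 of 36 pairs above 0.1. Same-numbered arrays were thus not clearly more alike, and they were not treated as paired in the main model. With the replicate block, averaged heat was +0.51 for Lea14-A and +0.73 for Lea5-D (limma adjusted p = 0.232 and 0.488), and 1316 probe sets were called. For Lea5-D the block lowered the SE to 0.59, against 0.80 without it. Its deviations from group means were -1.58, -1.68, -2.14 and +0.099 on the arrays numbered 1, and -0.065, +1.43, +2.35 and +1.17 on those numbered 2 (Sicala 45 at 42 °C and 32 °C, then Sicot 53 at 42 °C and 32 °C). On the arrays numbered 3 they were +1.64, +0.25, -0.21 and -1.27 in the same order.

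Calls over the whole table, 1481 for averaged heat, were 5535 scaled to the spikes, 2954 with array weights, 779 with the ubq11 ratio, 780 without its 2 high arrays and 760 to 1675 with single arrays left out. In Sicala 45, 304 became 638, 513 and, with only the groups compared, 140 (98 to 337 with single arrays left out). In Sicot 53, 228 became 2000 with array weights, 28 with the ubq11 ratio, 15 without the high arrays and 60 with only the groups compared (18 to 276). Cultivar calls, 18 at each temperature, became 35 and 30 with array weights. The difference between heat changes called 0, and 1 without Sicala 45 at 42 °C replicate 3. For averaged heat and the difference between heat changes, fitting only the groups compared is the same fit and was not run apart.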
